A study of Mus musculus with 30 samples.

Results

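Pdk4, Angptl4, Olr1 and Ephx2 are 4 of the 14761 named genes measured here, and they were chosen because their levels over the groups of the study did not keep step with the conversion of the cells into fat cells. The choice used the array values reported below, so those values are given as a description and no test is applied to these genes. Adipoq, which encodes the fat cell hormone adiponectin, served as the scale of conversion. The cells were 3T3-L1, a mouse fibroblast line that can turn into adipocytes, grown in medium with fetal bovine serum. Exposure began 2 days after confluence, and RNA was taken at day 10.

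The 9 agents and 1 solvent control were each hybridised on 3 arrays. MDI is the classical hormone cocktail of 0.5 mM isobutyl methylxanthine, 0.25 uM dexamethasone and 10 ug/mL insulin, given for 48 h and followed by 8 days of insulin alone. The other groups are labelled ROSI, TBT, BP, PP, BBP, BPA, EB and DEHP, and the control is DMSO at 0.1%. In common use ROSI stands for rosiglitazone, TBT for tributyltin, BBP for benzyl butyl phthalate, BPA for bisphenol A and DEHP for di(2-ethylhexyl) phthalate. The labels give these short forms alone, and BP, EB and PP are kept as codes. The labels used here give no dose for these 8 agents, so differences between agents hold for the amounts used and do not compare potency. Every array set a Cy3 sample against 1 Cy5 reference, a mixture of equal parts of the control and exposed samples. Each level below is a log2 ratio of sample over that reference, and each difference is a difference of such ratios. In bulk RNA, fewer cells of a type and less RNA per cell cannot be told apart.

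The peroxisome proliferator-activated receptors (PPARs) are nuclear receptors that bind DNA together with RXR and are switched on by fatty acids and by drugs. PPAR gamma drives fat cell formation and fat storage genes, and PPAR alpha is best known for the genes of fatty acid oxidation in liver. Rosiglitazone is a PPAR gamma ligand, and tributyltin is known to bind RXR and PPAR gamma. Pdk4 encodes a kinase that switches off pyruvate dehydrogenase and so spares glucose. Angptl4 encodes a secreted inhibitor of lipoprotein lipase. Olr1 encodes LOX-1, a receptor for oxidised low density lipoprotein. Ephx2 encodes soluble epoxide hydrolase, which turns fatty acid epoxides into diols. All 4 are known PPAR targets.

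The start regions of Pdk4 and Olr1 are shown because the sequence table used here holds these 2 of the 4 genes. Each sequence holds 250 bases before and 50 bases after the RefSeq gene start, on the minus strand of mouse build GRCm38.p6. Capitals mark AGGTCA, the element that PPAR and RXR bind as a spaced pair. The Pdk4 region is chr6:5496229-5496528 and the Olr1 region is chr6:129507116-129507415.
Pdk4: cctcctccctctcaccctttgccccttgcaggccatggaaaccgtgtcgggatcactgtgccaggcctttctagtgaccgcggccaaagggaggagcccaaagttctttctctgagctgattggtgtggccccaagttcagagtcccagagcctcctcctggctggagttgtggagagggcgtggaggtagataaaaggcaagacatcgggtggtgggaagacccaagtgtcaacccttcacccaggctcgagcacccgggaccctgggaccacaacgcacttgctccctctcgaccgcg
Olr1: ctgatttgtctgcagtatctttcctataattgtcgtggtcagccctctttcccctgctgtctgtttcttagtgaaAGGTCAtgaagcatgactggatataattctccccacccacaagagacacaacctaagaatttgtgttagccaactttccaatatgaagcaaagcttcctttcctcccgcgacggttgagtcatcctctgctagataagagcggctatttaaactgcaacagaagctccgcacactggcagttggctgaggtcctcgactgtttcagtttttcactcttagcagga
The Olr1 window holds 1 AGGTCA, at position -175 from the start. That element was found in 16.3% of the 32851 windows of this length, searched on both strands. The spaced pair AGGTCANAGGTCA, which contains the single element, was found in 0.0396% of the windows and in neither of these 2. The letters GGGCGG (35.7% of windows) and TATAAA (13.6%) were not found in the 2 windows either.

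Adipoq differed widely between the agents. Its level was 1.58, 1.55 and 1.57 in the MDI arrays and 0.82, 0.88 and 0.96 in the ROSI arrays, against -2.69, -2.78 and -2.52 in the DMSO arrays. The mean was 0.59 in BP, 0.24 in PP, -0.36 in BBP, -0.46 in TBT, -0.79 in BPA, -2.32 in EB and -2.55 in DEHP. Arrays of neighbouring groups in this order overlapped between BBP and TBT, between EB and DEHP and between DEHP and DMSO, and not elsewhere. Over DMSO, Adipoq was 18.7-fold higher in MDI, 11.7-fold in ROSI, 4.61-fold in TBT and 4.95-fold in BBP. These folds depended on scaling. The log2 difference was 4.23 in MDI, 3.55 in ROSI, 2.21 in TBT, 2.31 in BBP and 1.88 in BPA, and after quantile normalization across arrays it was 2.47 in MDI, 2.22 in ROSI, 0.89 in TBT, 1.08 in BBP and 0.66 in BPA. Under that scaling it was 2.20 in BP and 1.80 in PP. Of the 10 measured genes in a list of adipocyte markers, 10 rose in MDI, 9 in each of ROSI, TBT, BP, PP, BBP and BPA, 1 in EB and 0 in DEHP (limma, adjusted p under 0.05), while 20.1% of all 19229 entries rose in MDI and 16.5% in ROSI. Markers of preadipocytes and fibroblasts fell for 4 of 7 measured genes in MDI, 6 in ROSI and 7 in TBT, and 1 rose in MDI. The share of all entries that fell was 18.3% in MDI, 14.3% in ROSI and 10.6% in TBT. All comparisons with DMSO share the same 3 control arrays.

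Counted by arrays, 4 of the 4 genes lay wholly above DMSO in ROSI (21.0% of all entries did so) and 4 of 4 in TBT (19.8%). The count was 3 of 4 in MDI (23.9% of entries), 2 of 4 in BP (19.3%), 2 of 4 in PP (19.2%), 2 of 4 in BPA (19.8%) and 1 of 4 in BBP (16.9%). In EB it was 0 of 4 (7.37%) and in DEHP 0 of 4 (8.34%). Pdk4 lay wholly below DMSO in BPA (as did 12.9% of all entries) and in DEHP (7.94%). The members were chosen on these contrasts, so nothing is read from the counts.

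Pdk4 was high in 2 groups and in no other. It stood at 1.04, 1.09 and 1.27 in the ROSI arrays and at 1.33, 1.21 and 1.07 in the TBT arrays, against -0.40, -0.58 and -0.47 in the DMSO arrays. The arrays of ROSI and TBT overlapped each other and lay far above every other array. MDI, which gave the highest Adipoq level, had -0.59, -0.56 and -0.80, and BPA had -0.78, -0.78 and -0.67. The means of the other groups were -0.64 in DEHP, -0.61 in BP, -0.57 in BBP, -0.53 in PP and -0.39 in EB. Ordered by mean, neighbouring groups had overlapping arrays all the way up to EB, and then came a gap of 1.40 between the highest EB array and the lowest ROSI array.

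Over DMSO, Pdk4 was higher by 1.62 ± 0.07 in ROSI (3.07-fold) and by 1.68 ± 0.07 in TBT (3.21-fold; ± is the SE of the fit unless SD is named). Its difference was -0.17 ± 0.07 in MDI, -0.12 in BP, -0.09 in BBP and -0.05 in PP, with arrays that overlapped those of DMSO. In BPA (-0.26) and DEHP (-0.15) all 3 arrays lay below all 3 DMSO arrays. Set directly against each other, Pdk4 was 3.46-fold higher in ROSI than in MDI, while Adipoq was 1.60-fold lower. After quantile normalization across arrays the ROSI difference was 1.24, and the lower values became -0.34 in MDI, -0.57 in BP, -0.36 in PP, -0.38 in BBP and -0.45 in BPA.

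**Figure D1:**
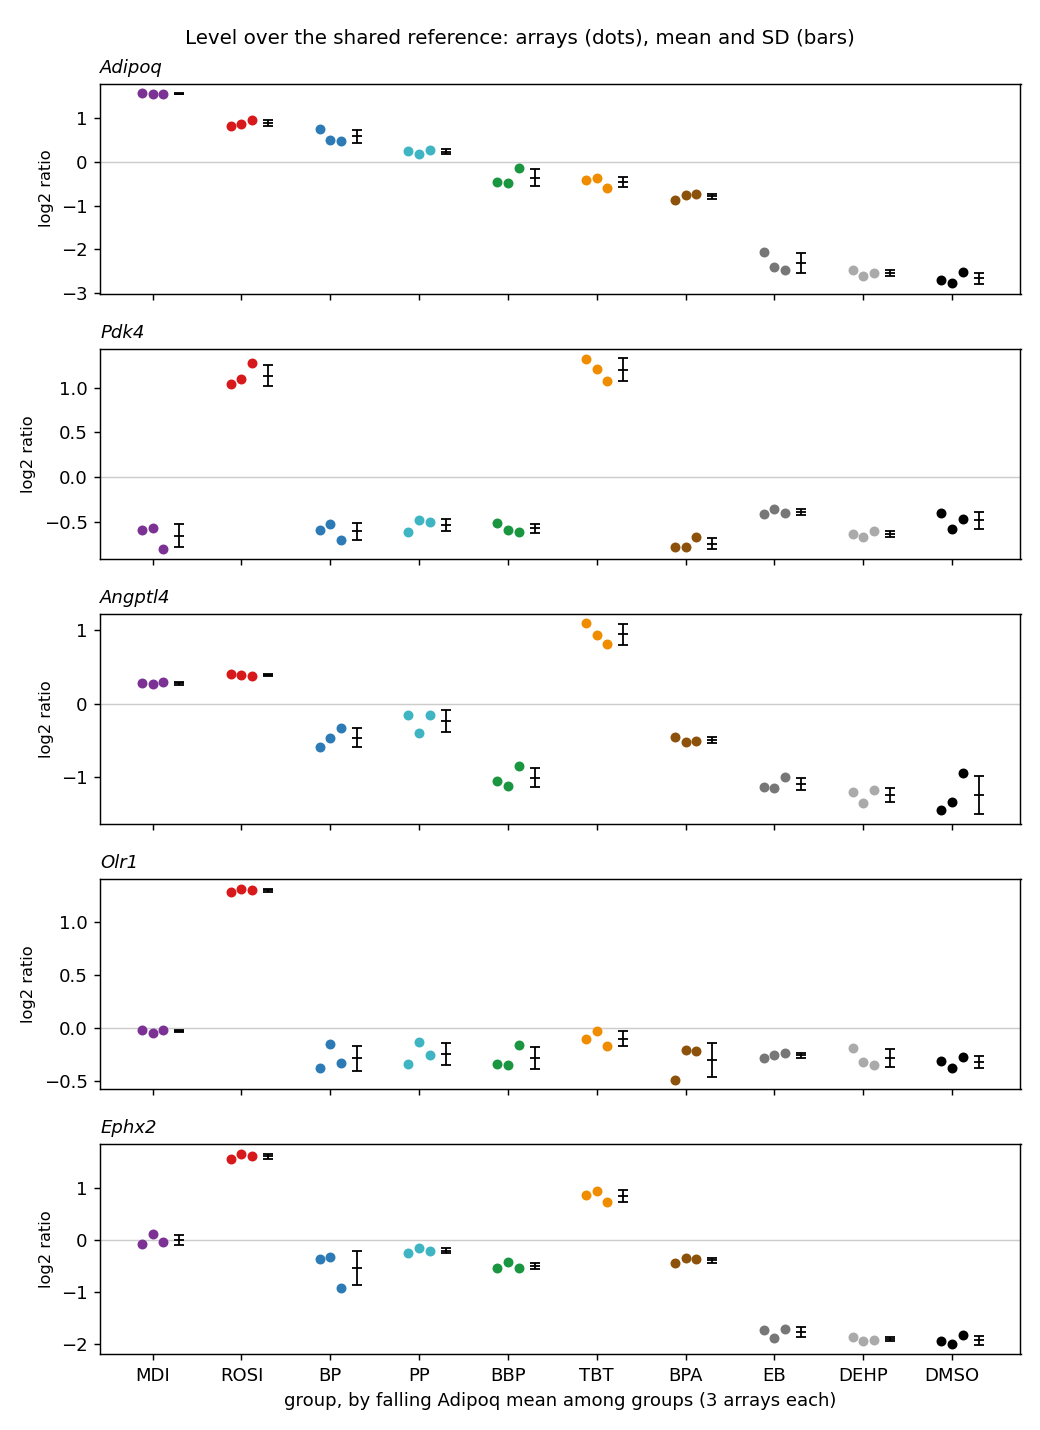
Log2 ratio over the shared reference (vertical axes) of Adipoq and the 4 genes in each of the 10 groups (horizontal axis), with a dot for each of 3 arrays and a bar for mean and SD. Pdk4 was high in ROSI and TBT alone, Olr1 in ROSI alone, and Angptl4 was highest in TBT.

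Angptl4 was above DMSO in most groups with raised Adipoq and was highest in TBT. The TBT arrays read 1.09, 0.93 and 0.81, the ROSI arrays 0.41, 0.39 and 0.38 and the MDI arrays 0.28, 0.26 and 0.30, against -1.45, -1.35 and -0.95 in DMSO. The arrays of these 3 agents did not overlap, but ROSI was above MDI by only 0.11 ± 0.10. Below them came PP (-0.15, -0.41 and -0.15), BP (-0.59, -0.47 and -0.33) and BPA (-0.45, -0.53 and -0.52). The BP range ran into those of PP and BPA, which were apart from each other. BBP, at -1.05, -1.12 and -0.86, overlapped both EB and DMSO, although its Adipoq level was well above theirs. Over DMSO the difference was 2.20 ± 0.10 in TBT (4.58-fold), 1.64 in ROSI (3.12-fold), 1.53 in MDI (2.89-fold), 1.02 in PP, 0.79 in BP, 0.75 in BPA and 0.24 in BBP. EB (0.15) and DEHP (0.00) overlapped DMSO. Quantile normalization lowered the MDI difference to 0.96, PP to 0.49, BPA to 0.24 and BP to 0.09, and turned BBP to -0.58, while TBT kept 1.75. DMSO was the least even group for this gene (SD 0.26), with 1 array at -0.95.

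Olr1 was high in ROSI alone. The 3 ROSI arrays read 1.28, 1.31 and 1.30, against -0.32, -0.38 and -0.27 in DMSO. MDI read -0.02, -0.04 and -0.02, and TBT read -0.11, -0.03 and -0.17. In these 2 groups every array lay above every DMSO array, by differences of 0.29 ± 0.07 in MDI and 0.22 ± 0.07 in TBT, the second of which was 0.12 after quantile normalization. The remaining groups had means between -0.30 and -0.24 and overlapped DMSO, with differences of 0.02 to 0.08, some of which turned sign after quantile normalization (-0.16 in BP, -0.09 in BBP and -0.06 in PP). The ROSI difference was 1.62 ± 0.07, or 3.07-fold, and the gap between the highest MDI array and the lowest ROSI array was 1.30. Spot intensities were not used here, so whether the Olr1 probe was near background outside ROSI is not known.

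Ephx2 was higher than in DMSO in each of the 7 groups whose Adipoq level lay above EB, yet in another order. ROSI arrays read 1.56, 1.65 and 1.63, TBT arrays 0.87, 0.94 and 0.73 and MDI arrays -0.08, 0.11 and -0.03, against -1.95, -2.0 and -1.83 in DMSO. PP read -0.25, -0.15 and -0.22, BPA -0.44, -0.36 and -0.37, and BBP -0.53, -0.43 and -0.54. BP was uneven, with 2 arrays at -0.36 and -0.33 and 1 at -0.92. ROSI, TBT, MDI and PP were each clear of their neighbours, whereas BPA, BBP and BP ran into each other, and EB and DEHP ran into DMSO. The difference from DMSO was 3.54 ± 0.10 in ROSI (11.6-fold), 2.78 in TBT (6.86-fold), 1.93 in MDI (3.81-fold), 1.72 in PP, 1.54 in BPA, 1.43 in BBP and 1.39 in BP. EB (0.15) and DEHP (0.01) were close to DMSO. Quantile normalization lowered these to 2.53 in ROSI, 2.05 in TBT, 1.16 in MDI, 0.91 in PP, 0.74 in BPA, 0.55 in BBP and 0.36 in BP, and the EB value turned to -0.03.

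Expressed as a share of its own ROSI difference, each gene had a profile of its own. In TBT, Pdk4 reached 104% and Angptl4 134% of the ROSI difference, Ephx2 78.4% and Olr1 13.5%. For Adipoq the TBT difference was 62.1% of that in ROSI. In MDI, whose Adipoq difference was 119% of that in ROSI, Angptl4 reached 93.1%, Ephx2 54.5%, Olr1 18.1% and Pdk4 -10.5%. In BP the share was higher for Adipoq than for each of the 4 genes. The Adipoq difference there was 91.5% of that in ROSI, while Angptl4 reached 47.9%, Ephx2 39.3%, Olr1 2.23% and Pdk4 -7.64%. Quantile normalization moved these shares. In TBT, Adipoq was then at 40.4%, Angptl4 at 159%, Pdk4 at 128%, Ephx2 at 81.3% and Olr1 at 9.52%. In MDI, Adipoq was at 112%, Angptl4 at 87.2%, Ephx2 at 45.8%, Olr1 at 16.9% and Pdk4 at -27.5%. In BP, Adipoq was at 99.2%, Ephx2 at 14.2%, Angptl4 at 8.43%, Olr1 at -12.5% and Pdk4 at -46.0%.

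**Figure D2:**
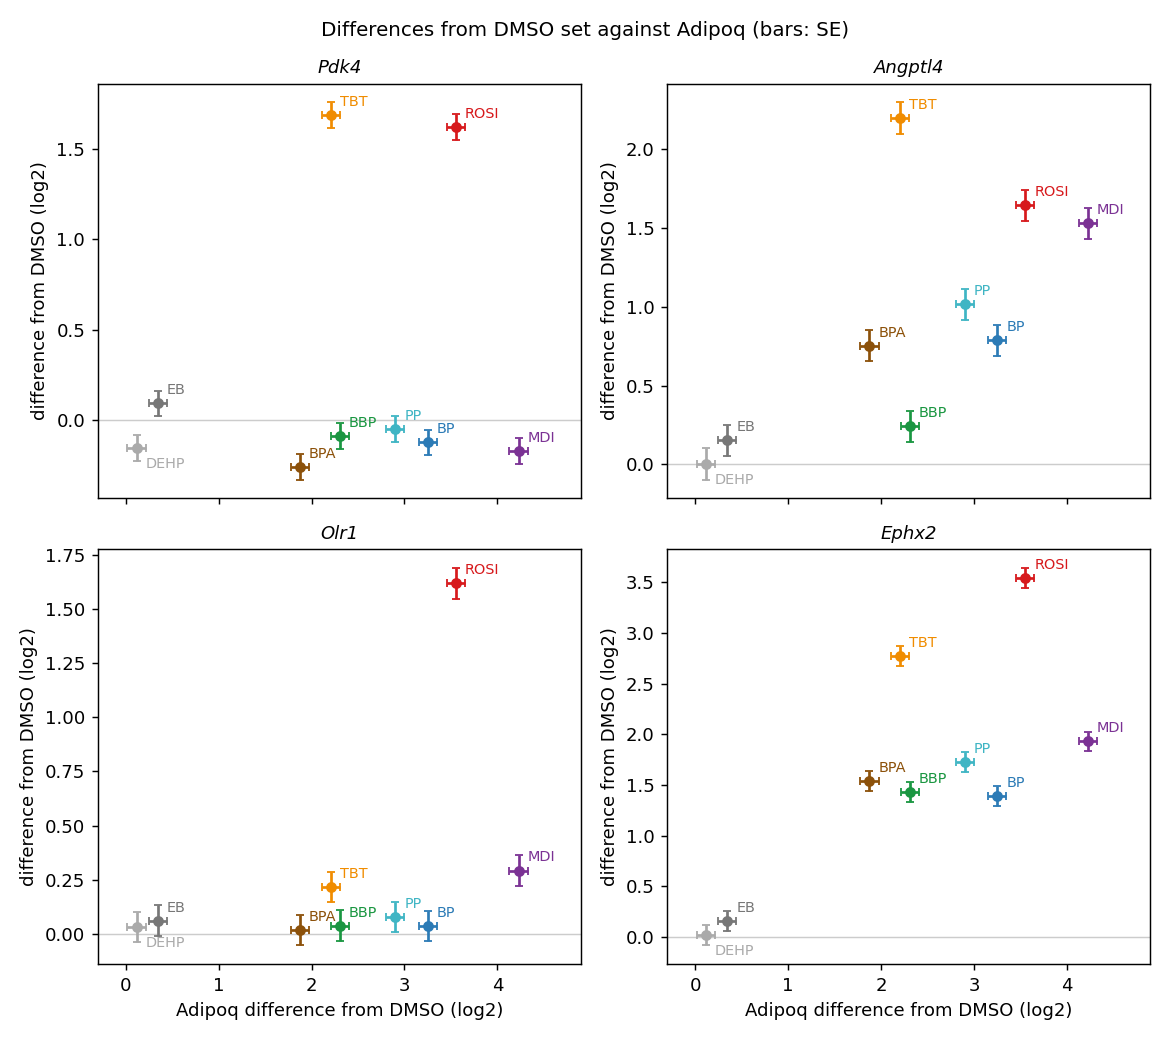
Difference from DMSO of each of the 4 genes (vertical axes, log2) against that of Adipoq (horizontal axes, log2) for the 9 agents, with SE bars. TBT, at an Adipoq difference of 2.21, lies above BBP, at 2.31, for Pdk4, Angptl4 and Ephx2, and MDI, at 4.23, lies near 0 for Pdk4.

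Across the 10 group means the correlation with Adipoq was r = 0.22 for Pdk4 (Spearman rho -0.08), 0.72 for Angptl4 (0.77), 0.45 for Olr1 (0.75) and 0.79 for Ephx2 (0.75). After quantile normalization r was -0.00308 for Pdk4, 0.40 for Angptl4, 0.38 for Olr1 and 0.58 for Ephx2. DMSO, DEHP and EB lie apart from the other groups on the Adipoq scale, so these values rest in part on that step. Without DMSO and DEHP, the 2 groups farthest from the median of Adipoq, r was 0.08 for Pdk4, 0.54 for Angptl4, 0.41 for Olr1 and 0.62 for Ephx2. Within the other 7 groups r was -0.02 for Pdk4, 0.28 for Angptl4, 0.43 for Olr1 and 0.24 for Ephx2, against a median of 0.73 for the genes of like range. The comparison set over 10 groups was 846 named genes whose group means spanned at least 1 on the log2 scale. Their median r was 0.83, with a lower quartile of 0.31, and 34.6% of them exceeded 0.9. The share of them with a smaller absolute r was 5.67% for Pdk4, 11.9% for Olr1, 29.7% for Angptl4 and 41.1% for Ephx2. All group means share the reference RNA, and r over them is given as a description with no test. After group means were taken out, deviations over the 30 arrays correlated at 0.45 between Pdk4 and Ephx2, 0.33 between Olr1 and Ephx2, 0.29 between Pdk4 and Olr1, 0.11 between Angptl4 and Olr1, -0.03 between Pdk4 and Angptl4 and -0.12 between Angptl4 and Ephx2. Their correlations with Adipoq on the same footing lay between 0.17 and 0.34.

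The genes whose patterns over the 10 group means were most like each member were found by r. For Pdk4 they were Fabp3 (r = 0.97), a fatty acid binding protein of heart and muscle, the kinase Sgk2 (0.96) and the cyclic nucleotide phosphodiesterase Pde1b (0.94). Fabp3 was higher by 5.53 in ROSI (46.2-fold) and by 4.54 in TBT (23.3-fold), against 0.46 in MDI. Sgk2 was higher by 1.59 in ROSI and 1.14 in TBT, and its MDI difference was 0.15. For Angptl4 they were Gramd1b (0.97), Cbr3 (0.96), a carbonyl reductase, and Acadl (0.96), which opens the oxidation of long-chain fatty acids. Gramd1b and Cbr3 were higher in TBT (1.59 and 1.67) than in ROSI (1.07 and 1.32), as Angptl4 was, whereas Acadl was at 1.23 in TBT and 1.29 in ROSI. For Olr1 they were Elovl3 (0.98), an elongase of very long-chain fatty acids, the stress gene Gadd45g (0.95) and Sptlc3 (0.95), a subunit of the enzyme that starts sphingolipid synthesis. Elovl3 was higher by 2.69 in ROSI, against 0.83 in TBT and 0.76 in MDI. For Ephx2 they were Eci1 (0.96), an enoyl-CoA isomerase of fatty acid oxidation, Ermp1 (0.96) and Retsat (0.96), retinol saturase. Retsat was higher by 2.70 in ROSI, 2.46 in TBT and 2.20 in MDI. These genes were picked by likeness to the members, so their values are given here with no test. Fabp3, Acadl and Eci1 also belong to the fatty acid oxidation list below and Retsat to the fat storage list, and they are counted there.

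The receptors themselves were tested in the fit over all entries. Ppara rose in ROSI by 1.38 ± 0.12 (limma adjusted p = 5.77e-10) and in TBT by 0.89 ± 0.12 (limma adjusted p = 1.46e-06), and by less in MDI (0.41, limma adjusted p = 6.62e-03). It did not pass in BP (0.07), PP (0.04), BBP (0.09), BPA (0.08), EB (0.03) or DEHP (-0.14), although after quantile normalization it fell by 0.29 in BP and by 0.28 in PP. Its mean level was 0.84 ± 0.40 in ROSI, 0.36 ± 0.20 in TBT and -0.13 ± 0.0027 in MDI, against -0.54 ± 0.07 in DMSO (SD, n = 3 each), so the ROSI arrays were spread widely. Pparg rose in 7 agents, most in MDI (2.54 ± 0.06) and BP (1.60), then PP (1.50), ROSI (1.15), BPA (1.07), TBT (0.98) and BBP (0.86). Ppard rose in MDI (0.64), PP (0.35) and BP (0.26, which no longer passed without DMSO replicate 2 at 0.18, and likewise without DMSO replicate 1, BP replicate 1 or BP replicate 3, or in the 2-group fit), and its difference was 0.00 in ROSI and 0.09 in TBT. In the direct comparison of ROSI with MDI, Ppara was higher by 0.97 and Pparg lower by 1.39 on the log2 scale in ROSI, with limma adjusted p of 5.23e-07 and 2.17e-14. Of the 17 measured genes in the list of PPAR receptors, partners and coregulators, 9 rose in MDI and 3 fell, 9 rose in ROSI and 8 in TBT. Among all entries 20.1% rose and 18.3% fell in MDI, and 16.5% rose in ROSI and 14.1% in TBT.

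Other PPAR targets were compared through lists of fat storage genes (26 of 30 measured) and fatty acid oxidation genes (31 of 39 measured), both without the 4 members. Of the 57 together, 50 rose in MDI, 51 in ROSI, 54 in TBT, 44 in BP, 45 in PP, 42 in BBP, 39 in BPA, 8 in EB (1 without DMSO replicate 2, and 0 after quantile normalization or in the 2-group fit) and 0 in DEHP. Over all entries 20.1% rose in MDI, 16.5% in ROSI, 14.1% in TBT, 12.9% in BP, 12.0% in PP, 6.9% in BBP, 12.3% in BPA, 0.432% in EB and 0.0104% in DEHP. Few fell, namely 3 in MDI, 1 in ROSI, 1 in BPA and 1 in PP, which became 0 in PP with the replicate block. Over all entries 18.3% fell in MDI, 14.3% in ROSI, 10.6% in TBT, 8.73% in BP, 8.24% in PP, 2.35% in BBP, 6.97% in BPA, 0.25% in EB and 0.0052% in DEHP. The median difference over the 57 genes was 1.79 in MDI, 1.72 in ROSI, 1.23 in TBT, 0.69 in BP, 0.93 in PP, 0.54 in BBP and 0.55 in BPA, with a median over all entries of at most 0.02 in each. In BBP and BPA the counts depended on scaling, since quantile normalization left 20 and 18 genes higher. Under the same scaling the genes that fell numbered 7 in BP, 5 in PP, 5 in BPA and 1 in BBP.

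Single targets of the 2 lists differed in which agent gave the higher value. In the oxidation list, Fgf21, a fasting hormone, rose in ROSI (0.77 ± 0.07) and TBT (0.67 ± 0.07), and its MDI difference was -0.01. Cpt1b, the muscle form of the enzyme that admits fatty acids to mitochondria, rose in ROSI (1.88), MDI (0.92) and TBT (0.64). Acaa2, the last enzyme of the oxidation cycle, rose in all 3 agents (2.60 in ROSI, 2.05 in MDI and 1.82 in TBT). In the storage list, Cd36, a fatty acid transporter that is also a scavenger receptor, rose by 4.62 in ROSI, 4.18 in MDI and 3.51 in TBT. The glucose transporter Slc2a4 rose most in MDI (4.64), against 2.87 in ROSI and 2.28 in TBT.

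**Figure D3:**
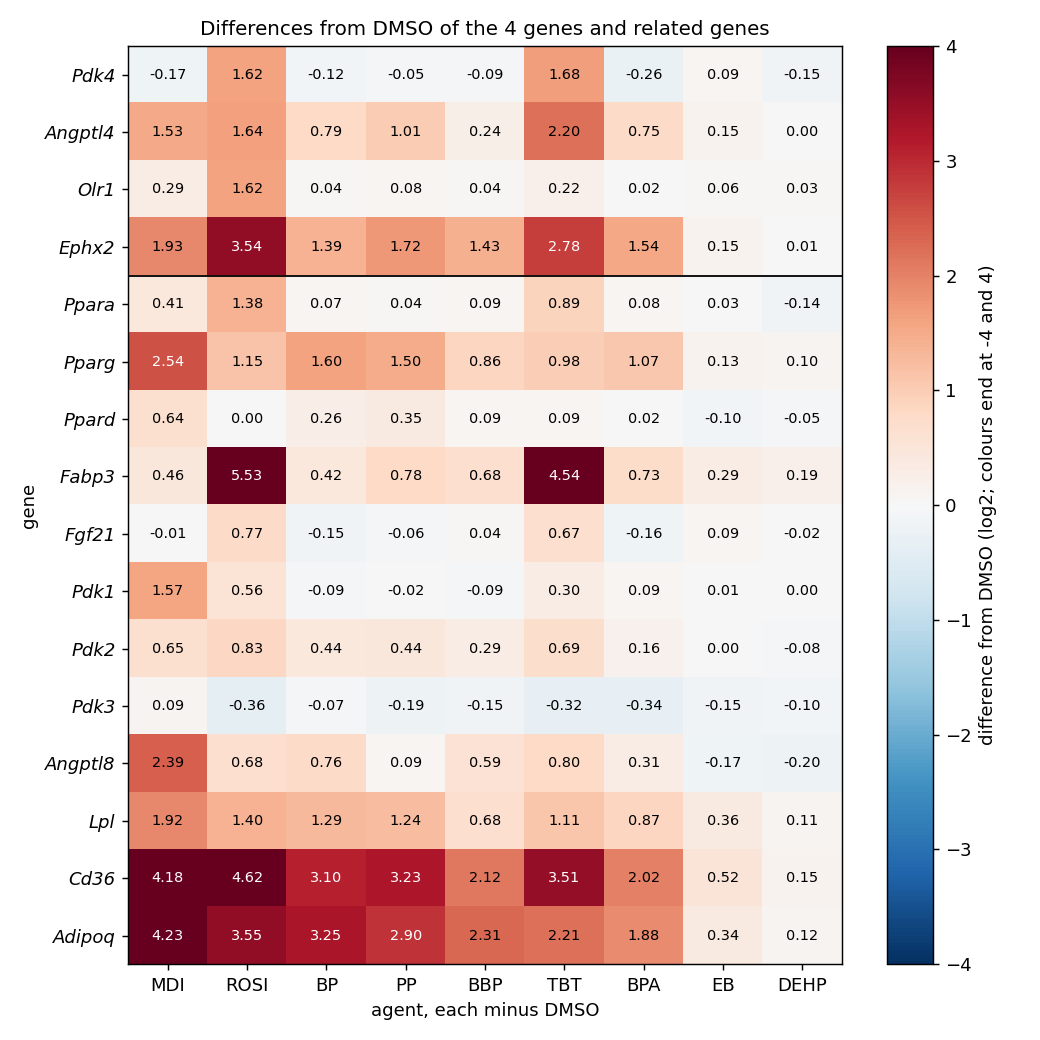
Difference from DMSO (log2, colour and number) of the 4 genes, above the line, and of receptors, family members and other targets, below it, for 9 agents. Ppara, Fabp3 and Fgf21 have their highest values in ROSI and TBT, and Pparg and Pdk1 in MDI.

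Direct comparison of ROSI with MDI, which uses no DMSO array, gave the 2 kinds of target unequal splits, a difference that was not itself tested. Of the storage genes 6 were higher and 12 lower in ROSI (median -0.15), and of the oxidation genes 14 were higher and 3 lower (median 0.15). Over all entries 9.48% were higher and 10.8% lower. Among the members the difference was 1.79 ± 0.07 for Pdk4, 1.61 ± 0.10 for Ephx2, 1.32 ± 0.07 for Olr1 and 0.11 ± 0.10 for Angptl4, and for each the arrays of the 2 groups were apart, with ROSI higher, as for 16.8% of all entries. Storage genes lower in ROSI included Scd1, a fatty acid desaturase (-1.85), and Slc2a4 (-1.77). Oxidation genes higher in ROSI included Cpt1b (0.96), Fgf21 (0.78) and Acaa2 (0.55), and the storage gene Plin4, a lipid droplet coat protein, was higher too (0.74).

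TBT was next set against ROSI. Angptl4 was higher by 0.55 ± 0.10 in TBT, while Olr1 (-1.40 ± 0.07), Ephx2 (-0.76 ± 0.10) and Adipoq (-1.35 ± 0.10) were lower, all with arrays apart (30.5% of all entries in either direction). Pdk4 differed by 0.06 ± 0.07, with overlapping arrays. After quantile normalization the Pdk4 difference was 0.34 and that of Ephx2 -0.47. Among the other PPAR targets 9 were higher and 38 lower in TBT, and over all entries 7.31% were higher and 10.4% lower. Against MDI, TBT had Pdk4 higher by 1.85, Ephx2 by 0.85 and Angptl4 by 0.67, with arrays apart (18.4% of entries, higher), while Olr1 overlapped (-0.07) and Adipoq was lower (-2.02). The storage targets fell in TBT relative to MDI for 21 of 26 genes and rose for 0, and the oxidation targets fell for 15 of 31 and rose for 10, against 15.7% of all entries lower and 12.5% higher.

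TBT and BBP offer a pair with overlapping Adipoq arrays, a comparison added after the Adipoq values had been seen. Adipoq read -0.42, -0.37 and -0.59 in TBT and -0.45, -0.49 and -0.14 in BBP, a difference of -0.10 ± 0.10. At that like Adipoq level Angptl4 was higher in TBT by 1.96 ± 0.10, Pdk4 by 1.77 ± 0.07 and Ephx2 by 1.35 ± 0.10. All of these had arrays apart (15.4% of all entries, higher), and Olr1 differed by 0.18 with overlapping arrays. Of the other targets 24 of 26 storage genes and 27 of 31 oxidation genes were higher in TBT and 0 were lower, with medians of 0.83 and 0.64, against 8.1% of all entries higher and 6.62% lower. Ppara was higher in TBT by 0.81 ± 0.12 (limma adjusted p = 1.65e-05), and Pparg differed by 0.12 and did not pass. Of the 10 adipocyte markers, 4 were higher and 1 lower in TBT (median 0.20), so the pair was not alike for every marker. The mean level of the 10 markers per array was -0.29 to -0.20 in TBT and -0.58 to -0.45 in BBP, with no overlap. The marker and storage lists share Fabp4, Plin1, Cidec, Lipe, Slc2a4 and Cebpa. The 4 higher markers were Fabp4, Plin1, Cidec and Slc2a4, so they are also counted among the 24 storage genes. Preadipocyte and fibroblast markers were lower in TBT for 4 of 7 genes. The part of these marker differences in the result was not tested.

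**Figure D4:**
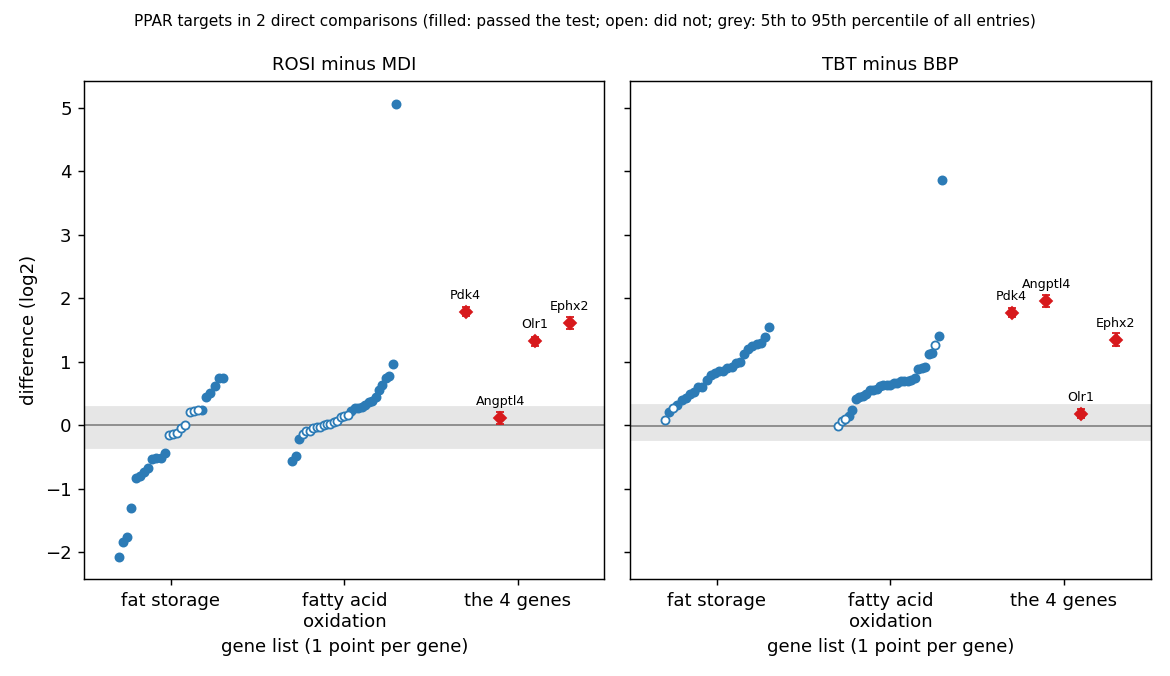
Difference (log2) of each measured PPAR target in ROSI minus MDI (left) and TBT minus BBP (right), filled where it passed the limma test, beside the 4 genes with SE. Grey spans the 5th to 95th percentile of all 19229 entries; in TBT minus BBP, 51 of 57 targets were higher, and in ROSI minus MDI 20 were higher and 15 lower.

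Relatives of the members were measured as well. Among the other pyruvate dehydrogenase kinases, Pdk1 rose most in MDI (1.57 ± 0.10), against 0.56 in ROSI and 0.30 in TBT, and was lower in ROSI than in MDI by 1.01 (limma adjusted p = 2.89e-08). The TBT value did not pass without TBT replicate 2 (0.17), DMSO replicate 1 (0.26) or DMSO replicate 2 (0.31), nor after quantile normalization (0.14) or in the 2-group fit (0.30). Pdk2 rose in MDI (0.65), ROSI (0.83) and TBT (0.69), and Pdk3 fell by 0.36 in ROSI and 0.32 in TBT. Among all entries 20.1% rose and 18.3% fell in MDI, 16.5% and 14.3% in ROSI, and 14.1% and 10.6% in TBT. In the pyruvate dehydrogenase list of 13 measured genes, 11 rose in each of MDI, ROSI and TBT, and 1 fell in MDI and 2 in each of ROSI and TBT. Those that rose include Mpc1, a subunit of the mitochondrial pyruvate carrier (2.03 in MDI, 1.81 in ROSI and 1.30 in TBT), and Pdhb, a subunit of the enzyme that the kinases act on (2.19, 1.94 and 1.45 in the same order).

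Angptl8, which inhibits lipoprotein lipase with a partner of its family, rose by 2.39 ± 0.08 in MDI, 0.80 in TBT and 0.68 in ROSI, and was lower in ROSI than in MDI (-1.71). Lpl itself rose by 1.92 in MDI, 1.40 in ROSI and 1.11 in TBT. Apoc2, the activator of that lipase, rose by 2.38 in TBT and 2.36 in MDI, against 0.55 in ROSI, a value that turned to -0.22 after quantile normalization. Angptl6 and Angptl7 did not pass in MDI, ROSI or TBT, except that Angptl6 in MDI (-0.17) passed with arrays centred, with the replicate block or in the 2-group fit, and in TBT (0.15) in the 2-group fit. In the list of angiopoietin-like proteins and lipase handling, 8 of 15 measured genes rose in MDI, 8 in ROSI and 6 in TBT, and 2 fell in ROSI. Among all entries 20.1%, 16.5% and 14.1% rose in the same order, and 14.3% fell in ROSI.

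Of the 16 measured scavenger and lipoprotein receptors, 4 rose in MDI and 2 fell, 5 rose in ROSI and 3 fell, and 3 rose in TBT. The shares that rose were 25.0% in MDI, 31.2% in ROSI and 18.8% in TBT, against 20.1%, 16.5% and 14.1% of all entries in the same order, so those in MDI and TBT were near the background. Scarb1, the receptor for high density lipoprotein, rose in MDI (1.91), ROSI (1.82) and TBT (1.25). Of the 7 macrophage markers measured, 0 rose in MDI, 1 in ROSI and 0 in TBT, and 3, 1 and 1 fell in the same order. Among all entries 18.3%, 14.3% and 10.6% fell in that order. The mean level of the macrophage markers per array was 0.01 to 0.09 in ROSI and 0.13 to 0.22 in DMSO. Of the 2 endothelial markers measured, 0 rose in these 3 agents and 1 fell in MDI. The part of such cells in the Olr1 value was not tested.

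Among the other epoxide hydrolases, Ephx1, the microsomal form, rose slightly in TBT (0.21) and fell by 0.23 in BPA, Ephx3 passed in no agent, and Ephx4 rose in MDI (0.19). Of 21 measured epoxide and eicosanoid enzymes, 7 rose in MDI, 6 in ROSI and 4 in TBT, while 3, 1 and 1 fell in the same order. The shares that rose were 33.3% in MDI, 28.6% in ROSI and 19.0% in TBT, against 20.1%, 16.5% and 14.1% of all entries in the same order.

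Signals other than PPAR are known to act on Pdk4 and Angptl4, among them glucocorticoids, fasting through FOXO factors and low oxygen. Counts for these 3 lists stand against 20.1% of all entries that rose and 18.3% that fell in MDI, 16.5% and 14.3% in ROSI, and 14.1% and 10.6% in TBT. Of 19 glucocorticoid response genes, 11 rose and 5 fell in MDI, 5 rose and 8 fell in ROSI, and 6 rose and 6 fell in TBT. Dexamethasone was present in MDI for the first 48 h only, and 8 days of insulin alone followed before RNA was taken. Hsd11b1, which regenerates active glucocorticoid, rose by 3.77 in MDI, 1.18 in ROSI and 0.73 in TBT, the last of which turned to -0.42 after quantile normalization. Of 15 FOXO and fasting genes, 6 rose in MDI, 4 in ROSI and 6 in TBT, while 3, 1 and 0 fell in the same order. Klf15, a fasting regulator, rose by 2.79 in MDI, 0.57 in ROSI and 0.73 in TBT, with the ROSI value at -0.14 after quantile normalization and the TBT value at 0.12, which no longer passed. Of 17 hypoxia response genes, 13 rose in MDI, 10 in ROSI and 8 in TBT, while 1, 5 and 4 fell in the same order. Egln3, an oxygen sensor, rose by 3.74 in MDI, 2.37 in ROSI and 1.52 in TBT. The part of these signals in the members' levels was not tested. Insulin is listed for MDI alone and up to harvest, so its part cannot be told apart from the rest of that treatment.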

How the data were processed

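RNA of 30 3T3-L1 samples (10 groups of 3) was hybridised on 2-colour Agilent arrays, Cy3 for the sample and Cy5 for the reference, per the labels. The deposited log2 ratios hold reference over sample, so their sign was turned. This direction follows the dyes in the labels. The authors' log2 fold changes, taken as deposited with no turn, matched the differences of the turned ratios within 5e-08 for 8 comparisons. The log base is not stated and was read as 2. Array medians lay between -0.00315 and 0.0138. The MDI and DMSO group means correlated at -0.512 over all entries, that is, after probes of 1 gene were averaged. The authors used limma, per the submitters' processing notes, with its settings not given in the sources used here. A table with decimal commas, for DEHP, was not used.

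Of 23460 probes, 26 controls were left out, 18966 had 1 gene symbol, 0 several and 4468 none. Probes of 1 gene were averaged, giving 19229 entries. The 4 members and Adipoq have 1 probe each. One limma fit (version 3.58.1, R 4.3.3) over all 30 arrays gave 9 comparisons with DMSO and 4 between agents, with Benjamini-Hochberg adjustment over all entries and calls at an adjusted p under 0.05. The fit's code was tested on simulated data. Exact permutation of 3 against 3 arrays cannot go below 0.1. Members and gene lists were chosen with earlier results of these data known. Other genes are named by a rule: for each member, the 3 genes of highest r among those spanning at least 1, the family members and receptors, and the smallest p-values per list. Same-numbered replicates deviated together at r over 0.1 in every pair (0.127, 0.207 and 0.165) for PP and DMSO alone. For BP and DMSO all 3 pairs were above 0, at 0.0387, 0.097 and 0.121.

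Alternatives were median centring, quantile normalization, a replicate block, 2-group fits, robust variance, single probes, a least difference of 0.5, the authors' tables and leaving out each replicate. Promoter sequences are from RefSeq (GRCm38.p6), with 2 of the 4 members matched. Some list genes are not analysed here.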

Additional observations from a re-analysis of the deposited data

How the results depend on the processing

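Quantile normalization across arrays was the setting that moved the members. With it the differences from DMSO were -0.34 (MDI), 1.24 (ROSI), -0.57 (BP), -0.36 (PP), -0.38 (BBP) and -0.45 (BPA) for Pdk4. Angptl4 became 0.96 (MDI), 1.10 (ROSI), 1.75 (TBT), 0.093 (BP), 0.49 (PP), -0.58 (BBP) and 0.24 (BPA). Olr1 became 0.22 (MDI), 1.29 (ROSI), 0.12 (TBT), -0.16 (BP), -0.063 (PP) and -0.091 (BBP). Ephx2 became 1.16 (MDI), 2.53 (ROSI), 2.05 (TBT), 0.36 (BP), 0.91 (PP), 0.55 (BBP), 0.74 (BPA) and -0.032 (EB). Adipoq became 2.47 (MDI), 2.22 (ROSI), 0.89 (TBT), 2.20 (BP), 1.80 (PP), 1.08 (BBP), 0.66 (BPA) and -0.0111 (EB), and the r of Pdk4 with Adipoq -0.00308. In ROSI minus MDI the values were 1.58 (Pdk4), 0.14 (Angptl4), 1.07 (Olr1) and 1.37 (Ephx2). In TBT minus ROSI they were 0.34 (Pdk4), -1.16 (Olr1) and -0.47 (Ephx2), in TBT minus MDI 0.79 (Angptl4), and in TBT minus BBP 1.96 (Pdk4), 2.33 (Angptl4) and 1.51 (Ephx2). Among the other named genes it reversed Apoc2 (-0.22) and Klf15 (-0.14) in ROSI, Hsd11b1 in TBT (-0.42), Ppara in BP (-0.29) and PP (-0.28), and Mpc1 (0.091) and Pdhb (0.12) in ROSI minus MDI, and ended the calls of Pdk1 (0.14) and Klf15 (0.12) in TBT. Of the other named genes that passed, it made 15 of 21 differences from DMSO over 1.5 times smaller in MDI, 6 of 21 in ROSI and 8 of 22 in TBT, beside those that turned sign. The cause was not tested. Centring arrays on the median kept all differences of the members and Adipoq within 1 SD of the values given. Robust variance, the 2-group fit and the replicate block cannot change a difference of group means in this balanced design. Single probes cannot either, since each of these genes has 1 probe. The authors' deposited tables held the same differences. Leaving out 1 of 3 arrays cannot move a group mean by 1 SD of that group, so this check could not fail. Without BP replicate 3, Ephx2 in BP was 1.58 instead of 1.39.

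Counts of PPAR targets among the 57 moved as follows. With quantile normalization 20 were higher in BBP and 18 in BPA, 0 in EB, 7 lower in BP, 5 in PP, 1 in BBP and 5 in BPA, and 23 lower in TBT than in MDI. With only the 2 compared groups fitted, the lower count was 1 in MDI, 0 in ROSI and 0 in PP, and the higher count 0 in EB. A least difference of 0.5 left 0 lower in MDI, ROSI, PP and BPA, 3 higher in EB, 10 higher in ROSI minus MDI, 2 higher and 23 lower in TBT minus ROSI, and 5 higher and 23 lower in TBT minus MDI. Single probes gave 2 lower in BP, 2 in PP and 1 in BBP. The replicate block gave 1 lower in BP and 0 in PP and changed no other such count by over 1.5 times. Leaving out a replicate gave 1 to 3 lower in MDI, 0 to 1 in ROSI, 0 to 1 in BP, 0 to 1 in PP, and 1 to 9 higher in EB. Of all entries, BBP changed 1778, against 1171 with quantile normalization, 1116 with the 2-group fit and 970 to 1923 without a replicate (970 without DMSO replicate 2). EB changed 131, against 29, 0 and 8 to 381 in the same order (8 without DMSO replicate 2, 381 without EB replicate 2). DEHP changed 3, against 14, 0 and 2 to 48, with 16 under the block (48 without DMSO replicate 3).

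Signal over background is not known here, since spot intensities were not used, and 3 arrays per group limit the precision. The labels do not say that replicates came from separate cultures, so p-values measure the spread between these samples.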
